A study of Mus musculus with 6 samples.

Results

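Transcripts of 34 genes that mark endothelial cells, which line blood and lymphatic vessels, were measured in sorted alveolar type 2 cells (AT2s), the surfactant-producing cells of the lung. The genes were the rows of the count table whose symbol matched a list of endothelial identity genes, and all 34 were found among its 24421 genes. RNA was sequenced from lineage-labeled AT2s of 3 control libraries (AT2CTRL, *Sftpc-CreERT2/+; R26-tdTomato/+*) and 3 libraries with a constitutively active BMP receptor (AT2CAB, *Sftpc-CreERT2/+; R26-tdTomato/R26-caBmpr1a*). The Cre is driven by the *Sftpc* locus and is induced with tamoxifen, so both groups carried the Cre and the tdTomato reporter and differed in the *caBmpr1a* allele. Cells were sorted on the reporter, which recombines separately from *caBmpr1a*. AT2CTRL replicate 2 and AT2CAB replicate 1 came from mice of 16 weeks, and the other 4 libraries from mice of 12 weeks. The labels do not state outright that each library was a separate mouse, so the p-values measure only the spread between these libraries.

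Endothelial cells hold together through VE-cadherin (*Cdh5*), PECAM1 (*Pecam1*) and claudin 5 (*Cldn5*), respond to vascular endothelial growth factor through *Kdr* and *Flt1* and to angiopoietins through *Tek*, and keep their identity through ETS factors such as *Erg* and *Fli1* and SoxF factors such as *Sox17* and *Sox18*. The alveolar wall places their capillaries directly against the epithelium, and dissociated lung therefore contains many of these cells. The genes were listed as markers of endothelial identity, and the level of such genes in an AT2 sort is commonly read as a measure of its purity.

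Endothelial transcripts were present in every library at a low level. Their summed counts were 16121, 29335 and 22628 in AT2CTRL replicates 1 to 3 and 23926, 43179 and 38499 in AT2CAB replicates 1 to 3. These sums were 0.0704%, 0.120% and 0.0811% of all counts in AT2CTRL and 0.111%, 0.175% and 0.135% in AT2CAB. A single member, *Esam*, gave 4124 of the 16121 counts in AT2CTRL replicate 1 and 4193 of the 43179 in AT2CAB replicate 2. The lowest share was in AT2CTRL replicate 1 and the highest in AT2CAB replicate 2, and the groups overlapped because AT2CTRL replicate 2 lay above AT2CAB replicate 1. Per length, the members summed to between 568 and 1390 TPM (counts scaled by gene length and library total), against 233850 to 286750 TPM for a list of 19 AT2 markers. Transcript sums do not give the share of cells of each type, so this contrast does not measure how pure the sort was. In bulk RNA, more endothelial cells and more endothelial RNA per cell cannot be told apart.

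The promoter windows of *Tie1* (an orphan receptor kinase that partners *Tek*), *Robo4* (a guidance receptor of vessels) and *Cldn5* are shown to set AGGAAG, a core sequence bound by ETS factors, beside how closely these genes tracked the rest of the panel. Each window runs from 250 bases before to 50 bases after the RefSeq start on GRCm38.p6 and is written on the strand of the gene, with matches to AGGAAG or its reverse complement CTTCCT in capitals. *Tie1* is at chr4:118489800-118490099 on the minus strand, *Robo4* at chr9:37401722-37402021 on the plus strand and *Cldn5* at chr16:18776597-18776896 on the plus strand.
Tie1: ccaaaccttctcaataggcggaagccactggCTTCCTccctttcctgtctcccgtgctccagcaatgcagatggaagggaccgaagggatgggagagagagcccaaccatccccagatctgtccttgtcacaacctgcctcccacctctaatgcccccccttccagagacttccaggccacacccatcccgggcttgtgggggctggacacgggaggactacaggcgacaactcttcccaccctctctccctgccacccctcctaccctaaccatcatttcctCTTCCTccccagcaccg
Robo4: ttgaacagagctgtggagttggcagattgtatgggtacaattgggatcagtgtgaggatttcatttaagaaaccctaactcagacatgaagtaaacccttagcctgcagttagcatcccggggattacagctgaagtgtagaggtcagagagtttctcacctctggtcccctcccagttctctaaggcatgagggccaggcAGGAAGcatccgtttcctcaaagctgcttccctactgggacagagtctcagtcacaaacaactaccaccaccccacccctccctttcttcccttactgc
Cldn5: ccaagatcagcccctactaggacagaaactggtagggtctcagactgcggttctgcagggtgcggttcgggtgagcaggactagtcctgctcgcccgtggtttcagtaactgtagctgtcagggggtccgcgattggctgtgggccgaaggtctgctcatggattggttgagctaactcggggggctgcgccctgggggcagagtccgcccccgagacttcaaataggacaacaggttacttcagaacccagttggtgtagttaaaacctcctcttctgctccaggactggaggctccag
*Tie1* held 2 matches, *Robo4* held 1 and *Cldn5* held 0. RefSeq windows were found for 18 of the 34 members, with 23 windows in all. AGGAAG on either strand was in 9 of the 23 windows (39.1%), close to the 35.4% of all 32851 promoter windows. AGATAA, a core sequence of GATA factors, was in 2 of the 23 windows on either strand (8.7%), against 11.2% of all windows. The AG that ends the one can begin the other, and each was counted on its own. Their shares in the members were near those of all promoters.

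Levels per length spread over more than 2 orders of magnitude. *Esam*, an adhesion molecule of endothelial junctions and platelets, had the highest mean level over the 6 libraries, 198 TPM. *Cldn5* followed at 81.6 TPM, and *Plvap*, which forms the diaphragms of capillary pores, was at 81.4 TPM. *Cldn5* and *Plvap* were indistinguishable in the order, as each varied more than 3-fold between libraries. *Cdh5* averaged 59.5 TPM and *Pecam1* 50.9 TPM. The lowest members were *Nos3*, endothelial nitric oxide synthase, at 2.04 TPM, the kinase *Bmx* at 0.994 TPM and *Prox1*, the master regulator of lymphatic identity, at 0.458 TPM. *Nos3* shares 294 exon bases with *Atg9b*, and no other member overlaps the exons of another gene. Whether this overlap affected the counts of *Nos3* was not tested.

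**Figure D1:**
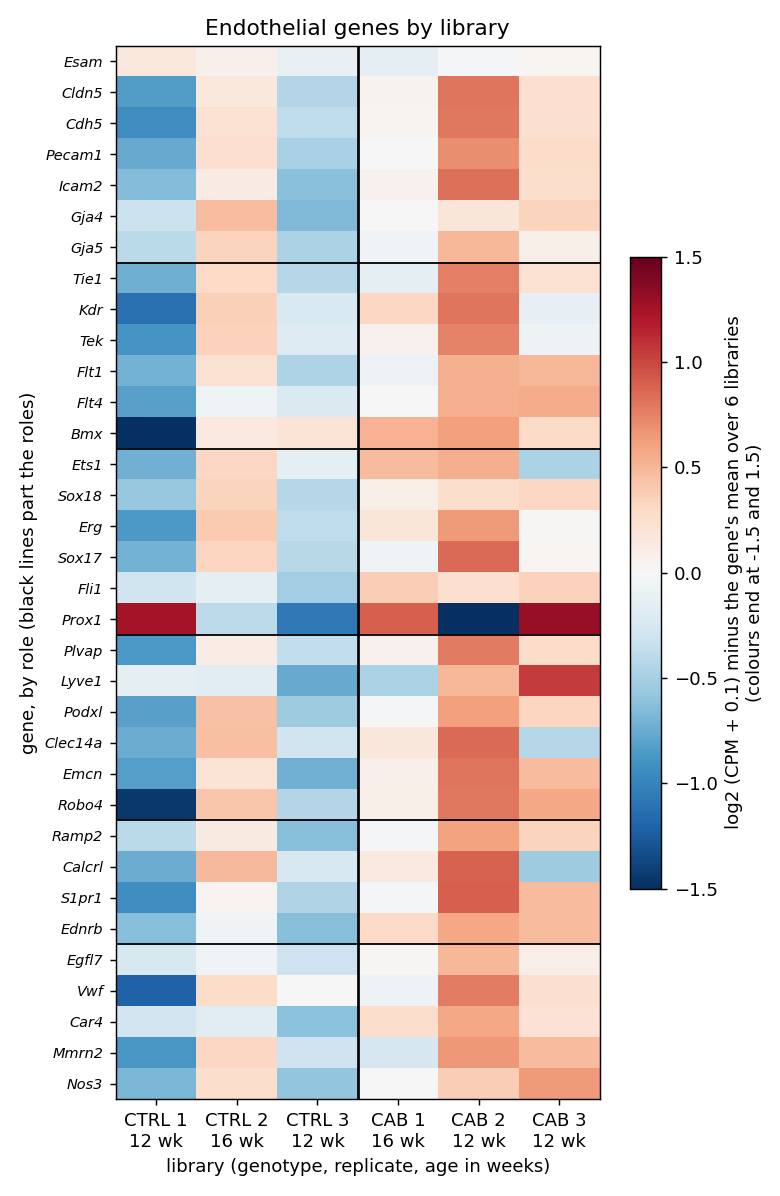
Log2 level of each of the 34 endothelial genes (rows, grouped by role) in each library (columns, with age in weeks), relative to the mean of the gene over the 6 libraries. Of the 34 genes, 26 were highest in AT2CAB replicate 2 and 24 were lowest in AT2CTRL replicate 1.

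Of the 7 junction genes, *Pecam1*, *Cdh5* and *Cldn5* followed the rest of the panel closely. *Pecam1* was measured at 42.1, 84.6 and 50.7 CPM (counts scaled by the effective library total from trimmed means of M-values) in AT2CTRL and at 71.2, 115 and 85.5 CPM in AT2CAB, in order of replicate as in all values that follow. *Cdh5* was measured at 51.3, 115 and 75.4 CPM in AT2CTRL and 100.5, 169 and 116 CPM in AT2CAB. *Cldn5* was measured at 26.7, 53.2 and 35.3 CPM in AT2CTRL and 49.6, 83.5 and 57.0 CPM in AT2CAB. In all 3 genes AT2CTRL replicate 1 was lowest and AT2CAB replicate 2 highest, and the groups overlapped at AT2CTRL replicate 2. The ratio of *Cdh5* to *Pecam1* counts stayed between 1.22 and 1.49 over the libraries, and that of *Cldn5* to *Pecam1* between 0.629 and 0.725. *Plvap* kept a ratio to *Pecam1* of 0.870 to 1.04. By contrast, the ratio of counts of *Sftpc*, the surfactant protein that defines AT2s, to *Pecam1* counts ran from 379 in AT2CAB replicate 2 to 1420 in AT2CTRL replicate 1.

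Across the panel, 29 of the 34 members varied more than 2-fold between their lowest and highest library, with a median range of 2.85-fold. To describe what they shared, the median over the other 33 members of the log2 level relative to each gene's mean was taken as the panel profile. The median fold of the gene mean was 0.599, 1.19 and 0.740 in AT2CTRL and 1.03, 1.55 and 1.21 in AT2CAB. The standard deviation (SD) of the log2 level over the 6 libraries had a median of 0.55 over the members, and around the panel profile it had a median of 0.22. It was smaller around the profile in 31 of 34 members, and 0.25 or less in 20. *Pecam1* followed the profile most closely, with an SD of 0.050 against a counting SD of 0.036 for its depth. The counting SD takes each count as independent, so it is too low if mates were counted separately. Of the genes whose promoters are shown, *Tie1* (2 matches) and *Cldn5* (0 matches) had SDs of 0.11 and 0.10 around the profile, and *Robo4* (1 match) had 0.37. These values describe genes measured in the same 6 libraries, and genes are not independent replicates.

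**Figure D2:**
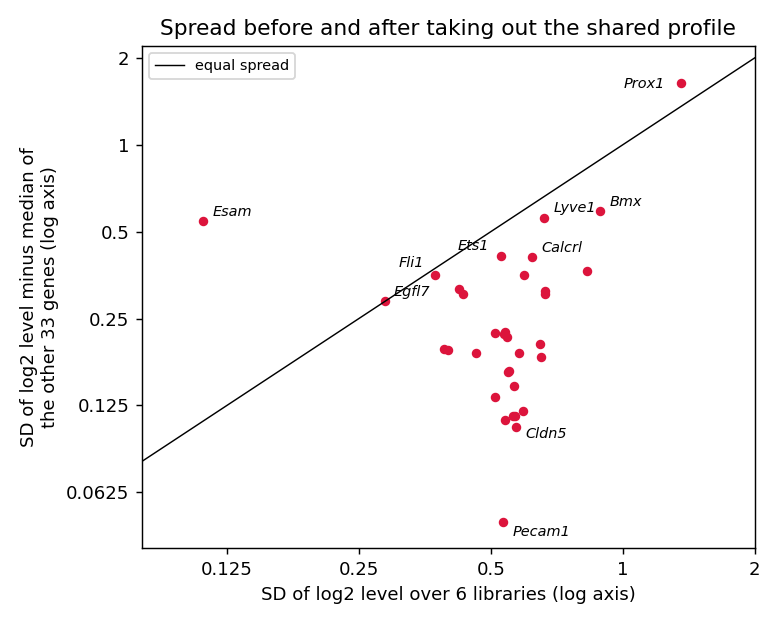
SD over the 6 libraries of the log2 level of each gene (horizontal axis) and of its distance from the panel profile (vertical axis). In 31 of 34 genes the distance from the profile varied less than the level itself, and *Esam*, *Lyve1*, *Prox1* and *Bmx* varied by more than 0.5 around it.

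A set of 4 members departed from the panel by an SD over 0.5. *Esam* was measured at 184, 174 and 153 CPM in AT2CTRL and 150.3, 163 and 169 CPM in AT2CAB. Its range was only 1.22-fold, and its count ratio to *Pecam1* ran from 1.41 in AT2CAB replicate 2 to 4.37 in AT2CTRL replicate 1. Whether the AT2s themselves contributed *Esam* transcripts was not tested. *Esam* lies at chr9:37528089-37538319, close to *Robo4* at chr9:37401897-37414023, and the neighbours differed in pattern, since *Robo4* was measured at 2.85, 10.6 and 5.83 CPM in AT2CTRL and 8.42, 13.8 and 11.9 CPM in AT2CAB. *Robo4* thus ranged 4.85-fold, with AT2CTRL replicate 1 lowest.

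*Prox1* and *Lyve1*, both known from lymphatic vessels, also departed from the panel. *Prox1* had 35, 10 and 6 counts in AT2CTRL and 26, 2 and 51 counts in AT2CAB, with its lowest count in AT2CAB replicate 2, where most members were highest. *Lyve1*, a hyaluronan receptor of lymphatic vessels that some macrophages also carry, was measured at 21.6, 21.1 and 13.9 CPM in AT2CTRL and 16.9, 33.3 and 48.9 CPM in AT2CAB. Relative to the panel profile, *Lyve1* was above by 0.62 in AT2CTRL replicate 1 and by 0.78 in AT2CAB replicate 3 on the log2 scale, and below in the other 4 libraries. *Prox1* was above the profile by 2.00 and 1.04 in the same libraries and by 0.86 in AT2CAB replicate 1. AT2CTRL replicate 1 and AT2CAB replicate 3 were also the 2 libraries with reads on Y-linked genes, 3935 and 4494 counts against 0 in the other 4, and the part of this difference was not tested. *Flt4*, the receptor of the lymphatic growth factor VEGF-C that some capillaries also express, had an SD around the profile of 0.22, near the median of the panel. *Flt4* was measured at 4.50, 7.63 and 6.84 CPM in AT2CTRL and 8.01, 11.6 and 11.8 CPM in AT2CAB, which do not overlap.

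*Bmx*, a cytoplasmic kinase of arteries and endocardium, had 6, 30 and 35 counts in AT2CTRL and 37, 47 and 45 in AT2CAB, so its spread rested on few reads. Its SD around the profile was 0.59 and its counting SD 0.32, the latter too low if mates were counted separately.

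AT2CAB replicate 3 set a few genes apart from the others. *Calcrl*, the receptor that pairs with *Ramp2* to bind adrenomedullin, was measured at 37.3, 87.4 and 52.9 CPM in AT2CTRL and 68.9, 116 and 43.3 CPM in AT2CAB. It lay below the panel profile by a log2 distance of -0.80 in AT2CAB replicate 3, whereas *Ramp2* lay within 0.07 of it there. *Ets1*, an ETS factor that lymphocytes also express, and *Clec14a*, a surface lectin of vessels, were at -0.74 and -0.70 in the same library. *Kdr* was at -0.40 and *Tek* at -0.35 there, while *Flt1*, which binds the same ligand as *Kdr*, was at 0.24. The partners of a receptor complex or a ligand thus did not keep one ratio in that library.

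The comparison of AT2CAB with AT2CTRL asked whether activated BMPR1a in AT2s went with another level of these genes. The summed CPM averaged 953 ± 282 (SD, n = 3) in AT2CTRL and 1334 ± 303 (SD, n = 3) in AT2CAB, a ratio of 1.40 with overlapping groups. Without *Esam*, the member with the highest CPM, the ratio was 1.5. All 34 members passed the filter on low counts, and 0 passed an adjusted p of 0.05 and a fold over 2 in either direction in edgeR's quasi-likelihood test, against 0.227% of the 16723 genes tested called higher and 0.012% called lower. DESeq2 also called 0 members at these limits, where it called 0.873% of genes higher and 0.183% lower, and limma-voom called 0 members, 0.149% of genes higher and 0.00598% lower. At an unadjusted p under 0.05, edgeR counted 15 members higher (44.1%) and 0 lower, where 4.62% of all genes were higher and 5.05% lower. The log2 fold change (AT2CAB minus AT2CTRL) was above 0 in 33 of 34 members, against 48.8% of all genes, and its median was 0.60, against -0.0096 for all genes. The count of 15 became 25 without AT2CTRL replicate 2, against 4.76% of all genes. It became 3 without AT2CAB replicate 2 (3.94% of all genes), 4 without AT2CTRL replicate 3 (2.89%) and 6 without AT2CTRL replicate 1 (4.99%). As the members share the same libraries, these counts are not independent observations.

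**Figure D3:**
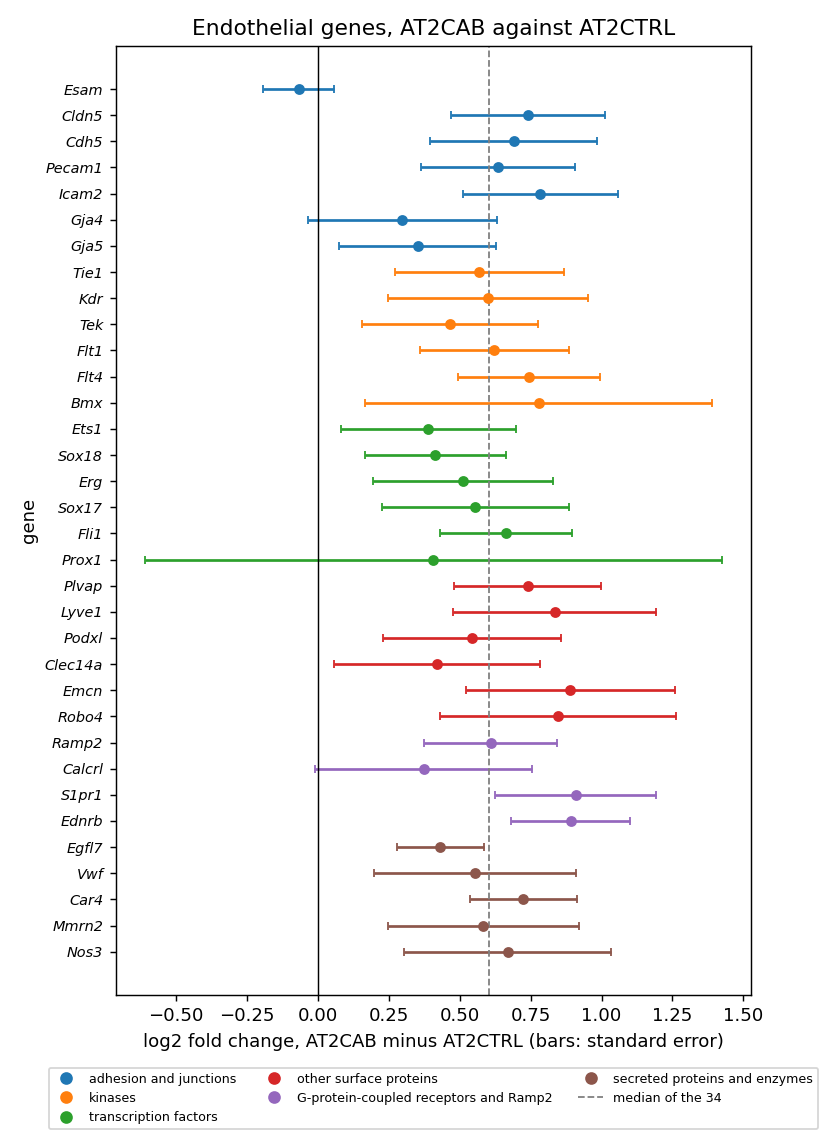
Log2 fold change of each endothelial gene (AT2CAB minus AT2CTRL, bars give the standard error from edgeR) by role, with the median of the 34 as a dashed line. The fold changes other than that of *Esam* lay between 0.30 and 0.91, and 0 of the 34 passed the test.

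The 3 AT2CAB values lay above the 3 AT2CTRL values in 6 members, *Flt4*, *Fli1*, *Egfl7*, *Ednrb*, *Car4* and *Bmx* (17.6%), and below in 0, against 6.52% and 10.9% of all genes. This count was 27 without AT2CTRL replicate 2 (11.4% of all genes) and 19 without AT2CAB replicate 1 (10.7%), the libraries from mice of 16 weeks. *Ednrb*, the endothelin receptor B, which marks the large gas-exchange cells of alveolar capillaries, was measured at 6.02, 9.06 and 5.99 CPM in AT2CTRL and 11.5, 14.1 and 13.1 CPM in AT2CAB. Its log2 fold change was 0.89 (SE 0.21), with the lowest adjusted p of the panel, 0.215, in edgeR's quasi-likelihood test. In DESeq2, *Ednrb* had a log2 fold change of 0.90 and an adjusted p of 0.0228, the only member to pass 0.05 there, at a fold under 2, where 1.45% of genes passed with a higher level. *Car4*, a carbonic anhydrase that marks the same capillary cells, was measured at 7.93, 8.71 and 6.34 CPM in AT2CTRL and 11.7, 14.6 and 11.3 CPM in AT2CAB. Its log2 fold change was 0.72 (SE 0.19, adjusted p = 0.271 in edgeR). In both genes every AT2CAB library was above every AT2CTRL library.

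By role, the receptors coupled to G proteins with *Ramp2* had a median log2 fold change of 0.75, and *S1pr1*, a sphingosine phosphate receptor that seals the endothelial barrier, had the highest value of the panel at 0.91 (SE 0.28, adjusted p = 0.368 in edgeR). *S1pr1* was measured at 16.1, 31.7 and 22.6 CPM in AT2CTRL and 30.4, 57.4 and 42.9 CPM in AT2CAB, so AT2CAB replicate 1 lay below AT2CTRL replicate 2. The other surface proteins had a median of 0.79, led by *Emcn*, a sialomucin of capillaries and veins, at 0.89. *Robo4* was at 0.85, *Lyve1* at 0.83, *Plvap* at 0.74, *Podxl*, an anti-adhesive sialomucin, at 0.54 and *Clec14a* at 0.42. *Ramp2* and *Calcrl*, which form a receptor together, were at 0.61 and 0.37.

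The 6 kinases had a median of 0.61 and ranged from 0.47 for *Tek* to 0.78 for *Bmx*, with *Tie1* at 0.57, *Flt1* at 0.62 and *Flt4* at 0.74. *Kdr* was measured at 19.3, 54.4 and 36.2 CPM in AT2CTRL and 52.4, 73.7 and 38.7 CPM in AT2CAB, with a log2 fold change of 0.60 (SE 0.35). Of the 7 junction genes, 6 had positive values, from 0.30 for the arterial connexin *Gja4* and 0.35 for *Gja5* to 0.78 for *Icam2*, an adhesion ligand of leukocytes. *Pecam1* was at 0.63 (SE 0.27, adjusted p = 0.508 in edgeR), *Cdh5* at 0.69 and *Cldn5* at 0.74. *Esam* was at -0.07 (SE 0.12), a sign that turned under upper quartile scaling and under scaling by library size alone.

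The 6 transcription factors had the lowest median of the role groups, 0.46. *Erg* was at 0.51, *Sox17* at 0.55 and *Sox18* at 0.41. *Fli1*, an ETS factor shared with blood cells, was measured at 3.79, 4.23 and 3.25 CPM in AT2CTRL and 6.07, 5.59 and 5.97 CPM in AT2CAB. Unlike most members, *Fli1* was highest in AT2CAB replicate 1, and *Ets1*, which lies near it on chromosome 9, lay above the profile by 0.44 there. The leukocyte list was also highest in that library, with a summed CPM of 280.2 against 92.4 to 161 in the other 5, and its part in these values was not tested. Of the 5 secreted proteins and enzymes, *Egfl7*, an angiogenic factor secreted by endothelium, was measured at 32.7, 37.3 and 31.3 CPM in AT2CTRL and 39.1, 54.6 and 41.5 CPM in AT2CAB. *Vwf*, the clotting factor stored in endothelial granules, and *Mmrn2*, a matrix protein of vessels, had log2 fold changes of 0.55 and 0.58, and *Nos3* had 0.67.

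Within the 4 libraries from mice of 12 weeks, the direction was the same and the difference larger. The median log2 fold change was 1.04, 29 of 34 members had groups that do not overlap (14.9% of all genes were apart in this direction), and 0 were called by edgeR (0.156% of all genes higher), with 26 at an unadjusted p under 0.05 (3.95% of all genes). The summed CPM was 718 and 874 in AT2CTRL and 1677 and 1223 in AT2CAB at this age. The single libraries from mice of 16 weeks lay the other way, with 1265 CPM in AT2CTRL and 1101 CPM in AT2CAB, and only 8 of the 34 members were higher in AT2CAB. The median log2 ratio of the members at 16 weeks was -0.21. Each genotype had 1 library at this age, and the same share and median over all genes were not taken. In a model with age as a covariate, the median was 0.64 with 0 members called by edgeR (0.215% of all genes higher) and 13 at an unadjusted p under 0.05 (4.16%).

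The 4 libraries without Y-linked reads gave a median log2 fold change of 0.49 in edgeR, with 0 members called (0.294% of all genes higher), 10 higher at an unadjusted p under 0.05 (6.26%) and 7 with groups that do not overlap, where 21.5% of all genes were apart in this direction. The 2 libraries with such reads were 1 of each group, at 718 CPM in AT2CTRL and 1223 CPM in AT2CAB. On the leading principal component of all genes (49.0% of the variance), these libraries scored -35.9 in AT2CTRL and -71.3 in AT2CAB. The other 4 libraries scored 1.29 to 53.4. On the second component (22.0%) the libraries with such reads lay apart from each other, at -50.4 in AT2CTRL and 21.2 in AT2CAB.

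Further endothelial genes outside the panel had their highest and lowest levels in the same libraries. Of a list of 35, 33 passed the filter and 0 were called (0.227% of all genes higher). In edgeR, 7 were higher at an unadjusted p under 0.05 (4.62% of all genes). Positive log2 fold changes were found in 32 (48.8% of all genes), with a median of 0.55. Of the 33, 28 were highest in AT2CAB replicate 2 and 25 lowest in AT2CTRL replicate 1. *Ccl21a*, a chemokine of lymphatic vessels, had 0 counts in all 6 libraries, and *Ackr1*, a marker of venules, had 3 counts in AT2CTRL replicate 1 and 0 in the rest. By counting error alone, a count of 0 allows up to 0.139 CPM in the shallowest library if counts are independent. Reads that could not be assigned to a single gene were not examined. *Vegfa*, the ligand of *Kdr* and *Flt1* that the epithelium makes, was named after its values were seen, and was measured at 447, 480.1 and 441 CPM in AT2CTRL and 445, 569 and 527 CPM in AT2CAB (log2 fold change 0.19, SE 0.14, adjusted p = 0.688 in edgeR). Of 8 ligands of the VEGF and angiopoietin families, 7 passed the filter and 0 were called (0.227% of all genes higher and 0.012% lower).

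**Figure D4:**
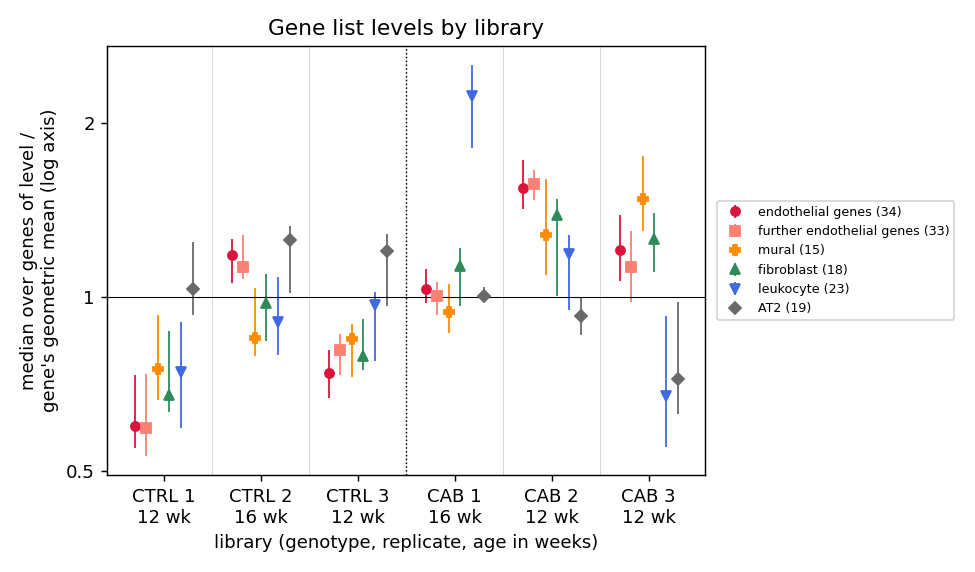
Level of each gene list by library, as the median over its genes of the level relative to the mean of the gene (log axis), with bars for the interquartile range over genes. Both endothelial lists and the fibroblast list were lowest in AT2CTRL replicate 1 and highest in AT2CAB replicate 2. The mural list was lowest in AT2CTRL replicate 1 and highest in AT2CAB replicate 3, and the leukocyte list was highest in AT2CAB replicate 1.

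Markers of other cells that a lung sort can hold were measured beside the panel. The 18 fibroblast genes summed to 624 to 826 CPM in AT2CTRL and 827 to 985 CPM in AT2CAB, with a median log2 fold change of 0.61. The 15 mural genes, which mark pericytes and smooth muscle, summed to 79.4 to 126 CPM in AT2CTRL and 121 to 184 CPM in AT2CAB, with a median of 0.59. As in the endothelial panel, AT2CTRL replicate 1 was lowest for 12 of the 18 fibroblast and 8 of the 15 mural genes. AT2CAB replicate 2 was highest for 11 fibroblast and 7 mural genes. The 24 leukocyte genes summed to 106 to 132 CPM in AT2CTRL and 92.4 to 280.2 CPM in AT2CAB, with a median of 0.73 over the 23 that passed. Of these, 22 had positive values and 20 were highest in AT2CAB replicate 1. *Ptprc*, the pan-leukocyte antigen CD45, was measured at 6.10, 11.8 and 16.5 CPM in AT2CTRL and 32.2, 17.5 and 7.18 CPM in AT2CAB, an order unlike that of *Pecam1*. The 19 AT2 markers summed to 172320 to 183610 CPM in AT2CTRL and 121460 to 150510 CPM in AT2CAB, with a median of -0.28. In these 4 lists 0 genes were called by edgeR, against 0.227% of all genes higher and 0.012% lower. At an unadjusted p under 0.05 in edgeR, 9 of 18 fibroblast, 3 of 15 mural and 1 of 23 leukocyte genes were higher. Of the 19 AT2 genes, 2 were higher and 7 lower at this limit. The shares of all genes were 4.62% higher and 5.05% lower. Each gene of these 4 lists had counts in at least 1 library. Their part in the endothelial values was not tested.

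Among the remaining lists, the 20 AT1 markers had a median log2 fold change of 0.31 and the 6 mesothelial markers 0.50. The 13 airway markers that passed had -0.0032 and the 4 erythroid and platelet genes that passed -0.24. Of the 13 airway markers, 1 was called higher by edgeR (0.227% of all genes), and their list averaged 842 CPM in AT2CTRL and 1083 CPM in AT2CAB. In the AT1, mesothelial, and erythroid and platelet lists 0 genes were called. The AT1 list shares *Vegfa* with the ligands above, and 14 of its 20 genes were highest in AT2CAB replicate 2, the library in which most endothelial genes were highest.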

How the data were processed

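Polyadenylated RNA of 6 libraries was sequenced with paired ends. The authors deposited raw counts per gene for the 6 libraries, made by trimming, mapping to mm10 with HISAT2, removing duplicates and counting with featureCounts 1.5.3. The header shows no option for strand or pairs, and 56.9% to 60.8% of counts from 1 to 20 were even, so mates appear to have been counted separately, and antisense reads cannot be told apart. Totals were 21554249 to 28440227 counts per library, and all replicate pairs differed beyond counting noise.

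Groups were taken from the genotype labels. Genes were filtered with filterByExpr (minimum count 10), scaled by TMM and tested with edgeR 4.0.16 in R 4.3.3 (quasi-likelihood, Benjamini-Hochberg over 16723 genes). Genes were called where the adjusted p was below 0.05 and the change exceeded 2-fold. SEs were derived from the fold change and F statistic. TPM used the deposited gene lengths, and panel profiles used log2(CPM + 0.1). DESeq2 1.42.0 and limma 3.58.1, other scalings and filters, age, replicate number and subsets of libraries were the alternatives. The script was tested on simulated counts. The members and lists were chosen with earlier results of these data known. Any of the 34 members could be named, and of other lists only defining markers and endothelial genes called or at 0. Intervals and floors (3 counts) cover counting error only. Like the counting SDs, they take counts as independent and are too small if mates were counted separately.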

Additional observations from a re-analysis of the deposited data

Results flagged for a closer look

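The ratio of summed endothelial CPM (AT2CAB over AT2CTRL) lay on opposite sides of 1 at the 2 ages. It was 1.82 (1.821) over the 4 libraries from mice of 12 weeks and 0.870 (0.8702) between the single libraries of each genotype at 16 weeks. The difference between the ages in this sum was not tested. Gene by gene, edgeR's interaction term of age and genotype passed an adjusted p of 0.05 for 0 of 34 members and for 0 of all genes, with 2 residual degrees of freedom. At an unadjusted p under 0.05, 15 members had a lower genotype effect at 16 weeks, against 1.04% of all genes. The term was negative in 33 of 34 members, against 46.8% of all genes, with medians of -1.20 and 0.030 on the log2 scale. With 1 library per genotype at 16 weeks, age and the individual library cannot be told apart.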

How the results depend on the processing

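At an adjusted p under 0.05 and a fold over 2, 0 members were called under every alternative run. Without the fold limit edgeR called 0 and DESeq2 called 1 (*Ednrb*), and an unadjusted p under 0.05 in edgeR gave 15 (4.62% of all genes higher, and 3 to 25 members on leaving out each library in turn, with 3, 4 and 6 without AT2CAB replicate 2, AT2CTRL replicate 3 and AT2CTRL replicate 1, and 25 without AT2CTRL replicate 2, where 2.89% to 4.99% of all genes were higher). The summed ratio stayed above 1, from 1.23 to 1.82. The median log2 fold change was 0.43 (without AT2CTRL replicate 1) to 0.92 (without AT2CTRL replicate 2) on leaving out each library and 1.04 (1.045) in the 12-week libraries, an alternative chosen after seeing the data. The count of members with groups that do not overlap ran from 6 to 27 on leaving out each library, with 27 without AT2CTRL replicate 2 and 19 without AT2CAB replicate 1, and was 29 in the 12-week libraries. The share of all genes was 9.32% to 14.1% and 14.9%, as fewer libraries make separation easier. The sign of *Esam* turned to 0.0049 (upper quartile), 0.063 (library size only) and 0.013 (without AT2CAB replicate 1). That of *Prox1* turned to -0.030 (without AT2CTRL replicate 3), -0.19 (without AT2CAB replicate 3) and -0.038 (12-week libraries), and that of *Calcrl* to -0.049 (without AT2CAB replicate 2). Leaving out each library gave -0.15 to 0.013 for *Esam*, -0.19 to 1.56 for *Prox1* and -0.049 to 0.76 for *Calcrl*. The causes were not tested. Scaling by library size alone moved the median of all genes to 0.12 and that of the members to 0.74. Deviations of same-numbered replicates had correlations of -0.25, 0.20 and -0.53, which cannot settle whether the numbers pair the samples. In both groups the summed endothelial CPM was lowest in replicate 1 and highest in replicate 2 (718 and 1265 in AT2CTRL, 1101 and 1677 in AT2CAB). A replicate block in edgeR left 0 called and a median of 0.64. It gave 22 members at an unadjusted p under 0.05 (3.97% of all genes higher), against 15 without the block.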
